A study of Mus musculus with 8 samples.

Results

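Long noncoding RNAs were followed by name on arrays of the embryonic mouse neocortex. Of 10 RNAs named (Snhg18, Snhg1, Snhg11, Meg3, Miat, Rian, Malat1, Neat1, Sox2ot and Rmst), 5 were matched to probes through the RefSeq noncoding accession that the scanner files give each probe. Snhg18, Snhg1, Malat1 and Neat1 had 1 probe each and Meg3 had 3, which makes 7 of the 39429 gene probes and 7 of the 886 probes with a RefSeq noncoding accession. For Snhg11, Miat, Rian, Sox2ot and Rmst no probe was matched, and their own levels were not analysed here. The set was picked in part for the excess of Snhg18 in the germinal zones, so the tissue differences of these 7 probes are given as a description, with no test. Total RNA came from hand-dissected tissue of ICR mouse embryos at embryonic day 16, when cortical neurons are still being produced. There were 4 samples of the germinal zones beside the ventricle (the ventricular and subventricular zones, V/SVZ), home of the progenitors, and 4 samples of the cortical plate (CP), the layer in which new neurons come to rest. Each sample lay on its own 1-colour Agilent array, and both tissues carried no treatment or allele in the labels. The number of animals or embryos behind a sample is not given in the labels, and the p-values below reflect sample-to-sample spread that may be technical.

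Long noncoding RNAs are transcripts with no long open reading frame, and several of those named here act in the nucleus. Small nucleolar RNA host genes (the Snhg family) are spliced transcripts whose introns release small nucleolar RNAs, the guides of ribosomal RNA modification, and Snhg18 carries Snord123. Meg3 and Rian are expressed from the maternal chromosome in the imprinted Dlk1-Dio3 domain. Malat1 collects in nuclear speckles, where splicing factors are stored, and Neat1 is the scaffold of paraspeckles. Miat, also called Gomafu, is a nuclear RNA of neurons, while Sox2ot and Rmst are linked to the progenitor factor Sox2.

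Promoter windows of 3 of these RNAs are shown because they stand for the 3 patterns below: a large excess in V/SVZ (Snhg18), a large excess in CP (Meg3) and no detectable difference (Snhg1). Each window is from RefSeq, build GRCm38.p6, and runs 5′ to 3′ on the strand of the gene from 250 bases before the annotated start to 50 bases after it. The Snhg18 window lies at chr15:32244613-32244912 on the minus strand, with GC boxes in capitals. The Meg3 window, the first of its 2 in RefSeq, lies at chr12:109540746-109541045 on the plus strand, with the cyclic AMP response element and the overlapping TATA boxes in capitals. The Snhg1 window lies at chr19:8723237-8723536 on the plus strand, with the 50 bases from the start onwards in capitals.
Snhg18: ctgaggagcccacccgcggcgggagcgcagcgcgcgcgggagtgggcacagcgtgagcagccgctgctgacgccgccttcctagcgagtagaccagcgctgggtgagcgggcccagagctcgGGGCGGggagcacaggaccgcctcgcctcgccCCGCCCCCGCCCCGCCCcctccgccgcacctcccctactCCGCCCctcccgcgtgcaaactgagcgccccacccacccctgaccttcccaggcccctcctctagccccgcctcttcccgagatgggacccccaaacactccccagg
Meg3: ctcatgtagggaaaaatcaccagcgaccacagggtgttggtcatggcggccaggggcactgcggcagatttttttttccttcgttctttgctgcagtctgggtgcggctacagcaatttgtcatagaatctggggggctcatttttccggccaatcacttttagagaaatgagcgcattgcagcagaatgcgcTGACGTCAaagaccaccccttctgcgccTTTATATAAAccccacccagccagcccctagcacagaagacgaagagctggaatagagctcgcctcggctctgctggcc
Snhg1: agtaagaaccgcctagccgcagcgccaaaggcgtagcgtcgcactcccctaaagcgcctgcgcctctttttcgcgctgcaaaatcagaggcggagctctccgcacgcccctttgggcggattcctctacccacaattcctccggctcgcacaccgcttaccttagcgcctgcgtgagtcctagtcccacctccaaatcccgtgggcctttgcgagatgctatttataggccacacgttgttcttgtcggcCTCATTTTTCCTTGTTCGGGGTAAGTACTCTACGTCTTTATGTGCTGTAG
The 5 motifs searched on both strands were the GC box, with the letters GGGCGG, the cyclic AMP response element, with TGACGTCA, the TATA box, with TATAAA, the box named for its letters CCAAT, and the E-box, with CAGCTG. Snhg18 held 5 matches to the GC box, counting those that share a base, and none to the other 4. Its window was 75.3% G and C, and 3.34% of all 32851 RefSeq windows of this length were above that. The GC box was present in 35.7% of all windows. The Meg3 window shown held 1 cyclic AMP response element, found in 1.79% of all windows, and 2 overlapping TATA boxes, found in 13.6%. It also held 1 match to the motif CCAAT, found in 37.4%. The other Meg3 window held no match to any of the 5 motifs. Snhg1 held 1 TATA box and 1 GC box. A match is a run of letters in the window and was not tested as a binding site.

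The arrays were alike in quality. The share of gene probes well above background was 58.6% to 62.9%, and the value used for scaling, the 75th percentile of an array's processed signal, was 2113 to 2566 intensity units. Slide 1 held only V/SVZ samples and slide 2 only CP samples, so slide and tissue cannot be told apart. The authors' deposited table of log2 values runs the other way: each of its columns follows the same-numbered array of the opposite tissue, and correlated at -0.953 to -0.943 across probes with the array it is named for. The scanner files were used, and their tissue labels went with the marker genes. V/SVZ was higher for all 10 radial glia genes and for all 5 genes of intermediate progenitors, and CP for all 10 projection neuron genes. Eomes, a factor of intermediate progenitors, had a log2 difference of 8.39 ± 0.18 SE, Sox2 of 3.32 ± 0.08 SE, Bcl11b of -2.79 ± 0.07 SE and Tbr1 of -1.53 ± 0.08 SE, where positive is higher in V/SVZ. For Pax6, also made by radial glia, no CP array was well above background. This gives a V/SVZ excess of at least 105-fold (43.6-fold after normexp background correction, below that bound). A second Pax6 probe, also not well above background on any CP array, was at least 3.77-fold higher in V/SVZ (3.08-fold after normexp correction).

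Genes of other cell types also differed between the tissues, and their part in the results below was not tested. For comparison, 38.6% of all tested genes with a symbol were higher in V/SVZ and 43.5% in CP, at an adjusted threshold of 0.05. Of 10 microglia genes, 9 were higher in V/SVZ, with array means of -0.43 to 0.17 on the scaled log2 axis in V/SVZ and -2.23 to -1.79 in CP. P2ry12, a microglial receptor, was 5.22-fold higher in V/SVZ. Of 8 interneuron genes, 3 were higher in V/SVZ and 5 in CP, among them the neuropeptide gene Npy, 38.0-fold higher in CP, and the array means were -0.64 to -0.55 in V/SVZ and 0.43 to 0.54 in CP. Of 10 endothelial and pericyte genes, 3 were higher in V/SVZ and 1 in CP, with Pdgfrb 1.90-fold higher in V/SVZ and array means of -0.86 to -0.68 against -1.03 to -0.84. Of 5 oligodendrocyte lineage genes, 2 were higher in V/SVZ, with Olig2 at 2.33-fold and array means of -2.42 to -2.07 against -2.77 to -2.47. V/SVZ was higher for 4 of 5 tested blood cell genes, with the globin gene Hba-a1 at 1.40-fold and array means of 1.05 to 1.58 against 0.87 to 0.99. Of 6 meningeal and choroid plexus genes tested, 1 was higher in V/SVZ (Col1a2, 2.05-fold) and 2 in CP, with array means of -4.43 to -3.79 against -3.45 to -3.22. The choroid plexus markers Ttr and Otx2 were not among the tested probes.

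The named RNAs fell into 3 patterns. Snhg18 was far higher in V/SVZ, all 3 Meg3 probes were far higher in CP, and Malat1, Neat1 and Snhg1 differed by less than 2-fold. In the fit over all 23860 probes tested, 3 of the 7 probes were past the adjusted threshold of 0.05 towards V/SVZ (Snhg18, Malat1 and Neat1), where 35.3% of all tested probes were, and 3 towards CP (the Meg3 probes), where 44.4% were, or 79.7% in either direction. Snhg1 was the probe not called. The tissues did not overlap for 5 of the 7 probes, and for 75.5% of all tested probes. Since the set was picked in part on this contrast, nothing is read from these counts. All 7 probes were well above background on all 8 arrays. In bulk tissue, fewer cells of a type and less RNA per cell cannot be told apart.

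**Figure D1:**
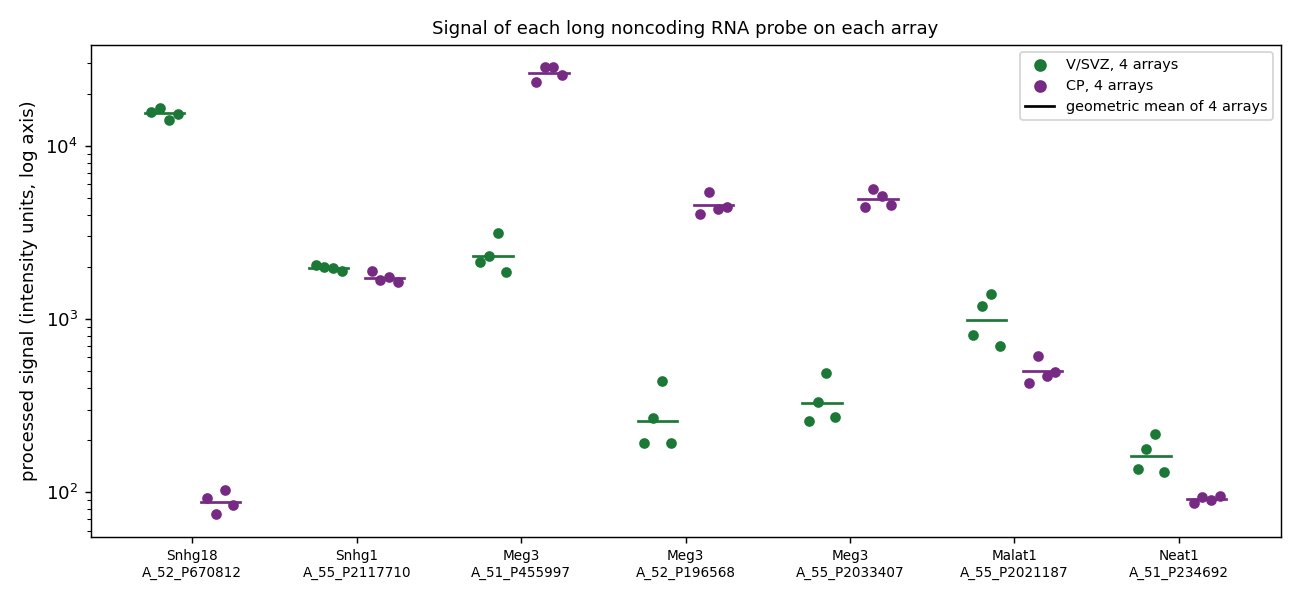
Processed signal in intensity units (log axis) of the 7 probes on the 4 V/SVZ arrays (green) and the 4 CP arrays (purple), with bars at the geometric mean of 4 arrays. Snhg18 lies between 14121 and 16601 in V/SVZ and between 74.6 and 103 in CP, the 3 Meg3 probes lie the other way, and the tissues are close for Snhg1, Malat1 and Neat1.

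Snhg18 gave a strong signal in the germinal zones and a signal close to the detection limit in the plate. Its probe (A_52_P670812, accession NR_038186, chromosome 15) read 15780, 16601, 14121 and 15276 intensity units on V/SVZ arrays 1 to 4, and 92.7, 74.6, 103 and 84.0 on CP arrays 1 to 4. The tissues were far apart and the V/SVZ arrays were within 1.18-fold of each other after scaling. On the CP arrays, the dimmest probe scored as well above background read 36.6 to 45.1, below the Snhg18 values. The scaled log2 value was 2.62 ± 0.11 in V/SVZ and -4.63 ± 0.18 in CP (SD, n = 4 each), a difference of 7.25 ± 0.10 SE, which is 152-fold. This was rank 16 among the 23860 tested probes by size towards V/SVZ. The fold depends on how background is removed from the dim CP spots, and it was 84.0-fold after normexp correction (log2 difference 6.39).

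**Figure D2:**
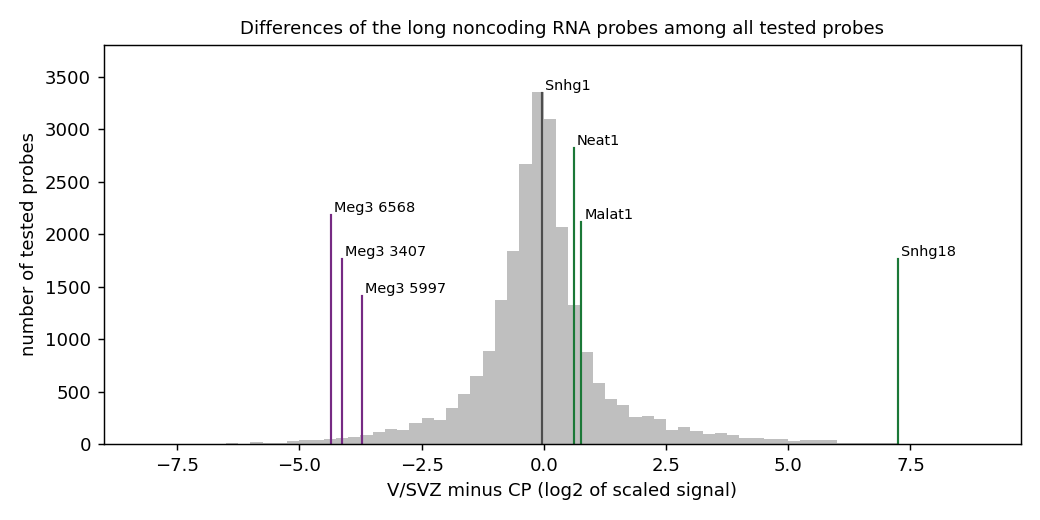
Histogram of the V/SVZ minus CP difference (log2 of scaled signal) of all 23860 tested probes, with lines at the values of the 7 probes (green for higher in V/SVZ, purple for higher in CP, grey for not called; digits after Meg3 are the end of the probe name). Snhg18 at 7.25 and the Meg3 probes at -3.72 to -4.35 lie in the tails, while Snhg1 lies at -0.03.

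Snhg18 stands back to back with Sema5a, a semaphorin gene of axon guidance, and both were much higher in V/SVZ. In RefSeq (GRCm38.p6) the starts of both genes are 151 bases apart on opposite strands, and their promoter windows share 250 of 300 bases, which is most of the GC-rich window printed above. Sema5a was 58.5-fold higher in V/SVZ (a log2 difference of 5.87 with SE 0.13, 4 arrays in each tissue, and limma adjusted p = 3.55e-09), and 50.4-fold after normexp correction. The 4 V/SVZ arrays all lay above the 4 CP arrays. On the other side of Snhg18, the next protein-coding gene with a tested probe was Atpsckmt, a mitochondrial lysine methyltransferase gene, which was 1.57-fold higher in V/SVZ (log2 difference 0.66 ± 0.04 SE, limma adjusted p = 1.70e-06). As background, 502 pairs of genes with starts on opposite strands at most 300 bases apart had both genes tested. Of the 299 pairs with both genes called, 175 (58.5%) were called in the same direction. Both genes were 4-fold or more higher in V/SVZ in 2 pairs, Snhg18 with Sema5a and the histone pair H2ac22 with H2bc22. The log2 differences of the histone pair were 2.96 and 2.39, and it was named after its values had been seen. Snhg18 was picked in part for its V/SVZ excess, so nothing is read from its place in this count.

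**Figure D3:**
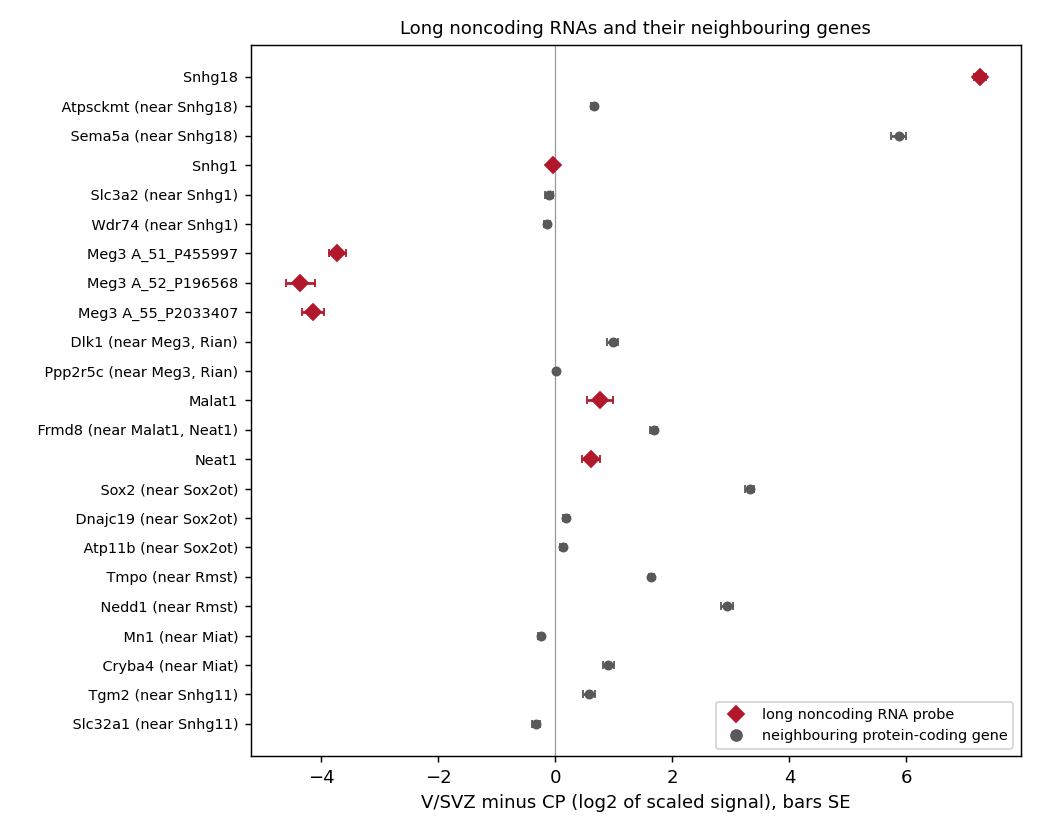
V/SVZ minus CP difference (log2 of scaled signal, bars SE) of the long noncoding RNA probes (red diamonds) and of protein-coding genes next to them (grey circles). Snhg18 and Sema5a both lie far to the right, whereas the Meg3 probes lie far to the left of Dlk1 and Ppp2r5c.

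Meg3 showed the opposite pattern, with all 3 probes higher on every CP array. The first probe (A_51_P455997, accession NR_027652, chromosome 12) read 2139, 2317, 3154 and 1875 intensity units on V/SVZ arrays 1 to 4, and 23279, 28570, 28530 and 25826 on CP arrays 1 to 4. No V/SVZ array came near a CP array. The scaled log2 value was -0.11 ± 0.30 in V/SVZ and 3.61 ± 0.17 in CP (SD, n = 4 each), and the difference of -3.72 ± 0.15 SE is 13.1-fold higher in CP. A second probe of the same accession (A_55_P2033407) read 258, 331, 488 and 271 in V/SVZ, and 4459, 5654, 5152 and 4576 in CP. Its difference was -4.13 ± 0.19 SE, which is 17.5-fold. The third probe (A_52_P196568, accession NR_003633) read 192, 269, 437 and 193 in V/SVZ, and 4044, 5405, 4348 and 4438 in CP. Its difference was -4.35 ± 0.25 SE, which is 20.4-fold. The 3 probes share 1 gene and are not independent of each other. After normexp correction their folds were 12.1, 13.8 and 15.7.

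Genes in and beside the Dlk1-Dio3 domain around Meg3 were called in both directions, with the larger differences towards CP. The list held 8 genes, of which 6 were tested, 2 of them called towards V/SVZ and 2 towards CP. The median log2 difference was -0.01, and 1 of the V/SVZ calls was of only 1.07-fold. Of all 13829 tested genes with a symbol, 38.6% were called towards V/SVZ and 43.5% towards CP (82.1% together), with a median of -0.05. The V/SVZ count of the list was 1 with median or spike-in scaling, with no filter on dim probes, with same-numbered arrays paired as a replicate block, and without V/SVZ array 1, 2 or 4 or CP array 2, 3 or 4, and it was 3 after normexp correction. Mirg, a noncoding RNA of the same domain that hosts a microRNA cluster, was 10.8-fold higher in CP (-3.43 ± 0.12 SE on the log2 scale, limma adjusted p = 4.83e-08). Begain, a gene of synaptic contacts at the edge of the domain, was 8.97-fold higher in CP (-3.17 ± 0.03 SE, limma adjusted p = 3.32e-10). Dlk1, which is expressed from the paternal chromosome and encodes a membrane protein of the Notch ligand family, was 1.98-fold higher in V/SVZ (0.98 ± 0.10 SE, limma adjusted p = 3.64e-05). Ppp2r5c, a phosphatase subunit gene and the next tested protein-coding gene beyond Meg3, had a log2 difference of 0.02 ± 0.03 SE (limma adjusted p = 0.574), while its other probes were called higher in CP at -0.75 and -0.62. Rtl1 and Dio3 were not among the tested probes.

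Malat1 and Neat1, the nuclear body RNAs that neighbour each other on chromosome 19, were modestly higher in V/SVZ and varied more among arrays than most probes. The Malat1 probe (A_55_P2021187, accession NR_002847) read 808, 1187, 1395 and 701 intensity units on V/SVZ arrays 1 to 4, and 429, 614, 471 and 497 on CP arrays 1 to 4. V/SVZ array 4 and CP array 2 overlapped after scaling, at -1.83 and -1.81 on the log2 axis. The difference was 0.77 ± 0.22 SE, which is 1.71-fold higher in V/SVZ. The Neat1 probe (A_51_P234692, accession NR_003513) read 136, 177, 217 and 130.2 in V/SVZ, and 86.9, 93.4, 90.2 and 95.3 in CP. Its tissues did not overlap, with a difference of 0.61 ± 0.15 SE, or 1.53-fold. Frmd8, a protein-coding gene beside them, was 3.19-fold higher in V/SVZ (log2 difference 1.68 ± 0.06 SE, limma adjusted p = 3.19e-08).

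Within the V/SVZ group, Meg3, Malat1 and Neat1 followed the same array order. On all 5 of their probes array 3 was highest, array 2 was next, and arrays 1 and 4 were lowest, an order that 12% of all tested probes had. Relative to the V/SVZ mean, array 3 stood at 0.41, 0.55 and 0.74 for the Meg3 probes, at 0.48 for Malat1 and at 0.40 for Neat1 on the log2 scale, and array 4 stood at -0.31, -0.26, -0.41, -0.48 and -0.31. Snhg18 and Snhg1 did not share it, with array 3 at -0.16 and -0.03. The SD of Malat1 in V/SVZ, 0.44, was above that of 92.4% of tested probes, and the SD of the third Meg3 probe, 0.53, above 94.7%, where the median SD was 0.09. List medians of the tissue markers moved little with this order: on array 3 the projection neuron genes were at -0.04 and the radial glia genes at -0.03 from their V/SVZ means. Without V/SVZ array 3 the difference was 0.61 for Malat1, 0.48 for Neat1 and -3.85, -4.31 and -4.59 for the Meg3 probes.

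**Figure D4:**
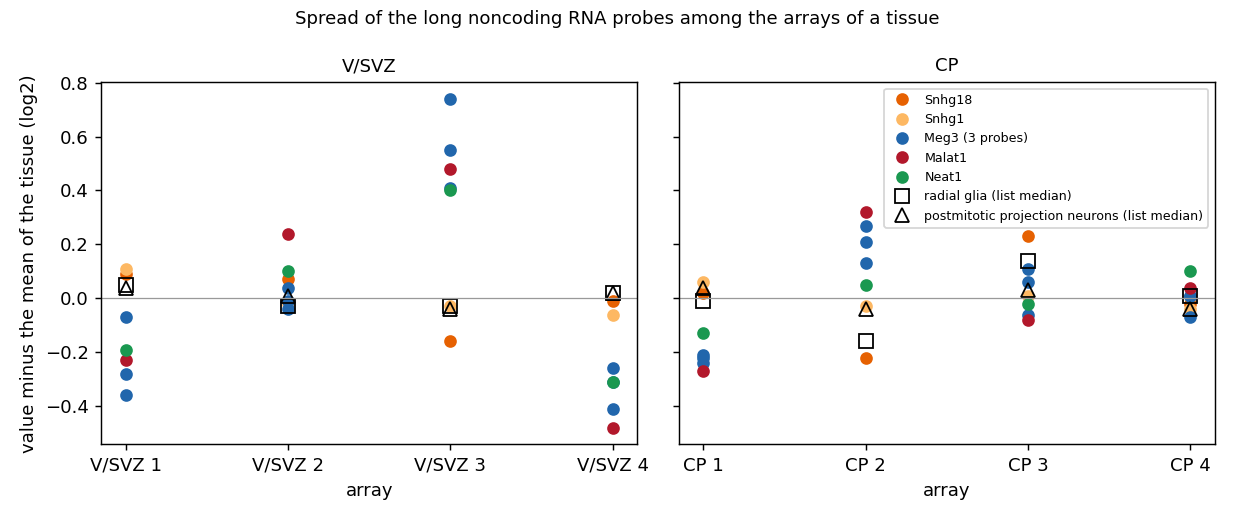
Value of each probe on each array minus the mean of its tissue (log2), with list medians of radial glia genes (open squares) and projection neuron genes (open triangles). On V/SVZ 3 the Meg3, Malat1 and Neat1 points lie at 0.40 to 0.74 while both list medians lie near 0, and on CP 2 and CP 3 the Snhg18 point lies on the same side of 0 as the radial glia median.

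In CP, Snhg18 had its lowest and highest values on the same arrays as the radial glia, SoxB, microglia and blood cell lists. Snhg18 was lowest on CP array 2, at -0.22 from the CP mean, and highest on CP array 3, at 0.23. The median of the radial glia genes was also lowest on array 2, at -0.16, and highest on array 3, at 0.14, that of the SoxB genes was -0.19 and 0.23, and that of the microglia genes was -0.25 and 0.14. The blood cell genes had the same order at its ends, with -0.08 on array 2 and 0.07 on array 3. The interneuron median was lowest on array 2, at -0.11, and stood at 0.08 on both arrays 1 and 3. The median of the intermediate progenitor genes was also lowest on array 2, at -0.10, but highest on array 1, at 0.10. The part of these cells in the Snhg18 values was not tested. Malat1 and all 3 Meg3 probes were instead highest on CP array 2 and lowest on CP array 1. With 4 arrays, these orders are a description only.

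Snhg1 differed little between the tissues. Its probe (A_55_P2117710, accession NR_002896, chromosome 19) read 2039, 1991, 1963 and 1883 intensity units on V/SVZ arrays 1 to 4, and 1884, 1681, 1743 and 1644 on CP arrays 1 to 4. The V/SVZ signals were slightly higher as read, and the tissues overlapped once each array was scaled. The scaled log2 value was -0.35 ± 0.07 in V/SVZ and -0.32 ± 0.04 in CP (SD, n = 4 each), a difference of -0.03 ± 0.05 SE. It ran from -0.03 to 0.11 over the scaling, background and model settings, and no direction is given. It was the only one of the 7 probes present in the authors' deposited table, where the difference, turned to the direction of the scanner files, was -0.02. Its neighbour Slc3a2, an amino acid transporter chain gene, had a log2 difference of -0.10 ± 0.07 SE (limma adjusted p = 0.190). Wdr74, a gene of ribosome assembly on the other side, had -0.14 ± 0.05 SE (limma adjusted p = 0.0199), and was not called after median scaling (adjusted p = 0.619), without V/SVZ array 2 (0.0541) or without CP array 3 (0.0521). Slc3a2 was called after normexp correction (adjusted p = 0.0460) and without V/SVZ array 4 (0.0297).

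Of the other small nucleolar RNA host genes, more were called towards CP than towards V/SVZ, most of them at less than 2-fold. Of 22 listed genes 12 were tested, 2 of them called towards V/SVZ, 8 towards CP and 2 not called, with a median log2 difference of -0.23. The 8 include Rnu12 (-0.23), a small nuclear RNA gene that is not a host gene. The count higher in CP was 5 with median scaling. Of all tested genes with a symbol, 43.5% were called towards CP and 38.6% towards V/SVZ. The largest was Snhg12, 2.35-fold higher in CP (-1.23 ± 0.05 SE, limma adjusted p = 7.32e-08), followed by Snhg7 at 1.49-fold (-0.57 ± 0.13 SE, limma adjusted p = 0.00342) and Snhg6 at 1.46-fold (-0.55 ± 0.03 SE, limma adjusted p = 1.37e-06). Snhg3 went the other way, 1.41-fold higher in V/SVZ (0.50 ± 0.07 SE, limma adjusted p = 2.06e-04). Of 19 tested genes of the protein complexes that package small nucleolar RNAs, 11 were called towards V/SVZ (9 with the mean of all probes of a gene) and 5 towards CP (2 with median scaling), with a median of 0.21. Naf1, an assembly factor of box H/ACA particles, was 1.80-fold higher in V/SVZ, and Nufip1, an assembly factor of box C/D particles, was 1.99-fold higher in CP. Nolc1, a nucleolar phosphoprotein gene, was 1.47-fold higher in V/SVZ by its brightest probe, while another probe was called the other way (-0.79). Of 17 genes of nonsense-mediated decay, the pathway that degrades many spliced host transcripts, 5 were higher in V/SVZ and 6 in CP, with a median of -0.04. Examples were the kinase gene Smg1 (1.58-fold higher in CP) and Eif4a3, a core factor of the exon junction complex, and Nbas, each 1.47-fold higher in V/SVZ.

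Genes of the protein partners of the nuclear body RNAs were called in both directions, more of them towards V/SVZ. Of all tested genes with a symbol, 38.6% were called towards V/SVZ and 43.5% towards CP. Of 28 tested genes of paraspeckle proteins, the partners of Neat1, 15 were higher in V/SVZ and 8 in CP, with a median of 0.15. Nudt21, a subunit of the cleavage factor of 3′ end processing, was 2.10-fold higher in V/SVZ, while Ss18l1, a neuronal chromatin subunit gene, was 2.97-fold and Zc3h6 1.90-fold higher in CP. Of 33 tested genes of nuclear speckles and splicing, 19 were higher in V/SVZ and 11 in CP, with a median of 0.28. Qk, which encodes the RNA-binding protein quaking, was 28.2-fold higher in V/SVZ (log2 difference 4.82 ± 0.07 SE, limma adjusted p = 5.96e-10), and its other probes were also called higher there, at 1.64 to 3.60. Ptbp1, a splicing repressor of progenitors, was 5.57-fold higher in V/SVZ (2.48 ± 0.05 SE, limma adjusted p = 2.19e-09). Rbfox1, a neuronal splicing factor gene, was 4.12-fold higher in CP (-2.04 ± 0.06 SE, limma adjusted p = 2.07e-08).

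**Figure D5:**
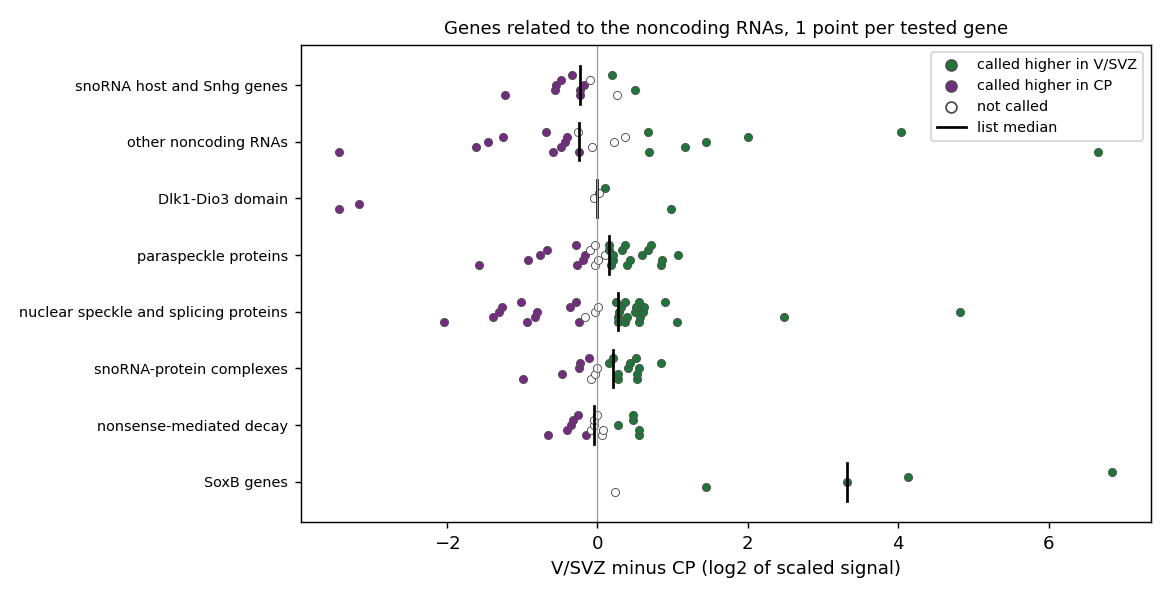
V/SVZ minus CP difference (log2 of scaled signal) of each tested gene in 8 lists related to the noncoding RNAs, filled where called (green for V/SVZ, purple for CP), open where not, with a bar at the list median. Medians run from -0.24 to 0.28 in 7 lists and reach 3.32 for the SoxB genes, where Sox3, Sox1, Sox2 and Sox21 are called.

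Among 21 other named noncoding RNAs tested, of 56 listed, 7 were called towards V/SVZ and 10 towards CP, with a median log2 difference of -0.24. In the deposited table, which holds only 17163 of the 39429 gene probes, 5 were called towards V/SVZ and 4 towards CP. The CP count was 14 with no filter on dim probes. Of all 414 tested probes with a RefSeq noncoding accession, 31.9% were called towards V/SVZ and 42.0% towards CP, with a median of -0.09. The RNAs higher in V/SVZ included transcripts that lie beside progenitor factor genes. Sox1ot, an overlapping transcript of Sox1, was 16.3-fold higher in V/SVZ (4.03 ± 0.22 SE, limma adjusted p = 5.82e-07), and Sox1 itself 17.5-fold (4.13 ± 0.08 SE). Other probes of both were also called towards V/SVZ but at lower folds. The second Sox1 probe was 2.16-fold higher. The second Sox1ot probe, not well above background on any CP array, was at least 2.34-fold higher (2.04-fold after normexp correction). Pax6os1, an opposite-strand transcript at Pax6, had CP signals that were not well above background and was at least 21.8-fold higher in V/SVZ, but 12.5-fold after normexp correction, below that bound. Pantr1, which lies beside the neural factor gene Pou3f3, was 4.00-fold higher in V/SVZ (limma adjusted p = 7.29e-09). Mirg had the largest difference towards CP. Kcnq1ot1, the noncoding RNA of another imprinted domain, was 2.74-fold higher in CP, and Peg13, also imprinted, 2.37-fold; both were singled out after their values had been seen.

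For the 5 RNAs with no matched probe, the genes beside them give only the local context. Sox2 lies within Sox2ot and was higher in V/SVZ by 3.32 ± 0.08 SE on the log2 scale (limma adjusted p = 4.57e-09). Of 5 SoxB genes 4 were called towards V/SVZ, beside 38.6% of all tested genes with a symbol. The SoxB median was 3.32, and Sox3 was 114-fold higher in V/SVZ. The next tested genes outside Sox2ot differed little: Dnajc19, a mitochondrial import gene, by 0.18 ± 0.05 SE, with a second probe called the other way (-0.16), and the flippase gene Atp11b by 0.13 ± 0.05 SE (limma adjusted p = 0.0316), which was not called with the replicate block (adjusted p = 0.0686) or in several fits with an array left out (adjusted p up to 0.0780). Beside Rmst, the centrosome gene Nedd1 was 7.63-fold and the nuclear lamina gene Tmpo 3.12-fold higher in V/SVZ (up to 5.58-fold by its other probes), at limma adjusted p = 4.85e-08 and 6.72e-09. Beside Miat, the crystallin gene Cryba4 was 1.88-fold higher in V/SVZ and Mn1 1.19-fold higher in CP, the latter not called with median scaling (adjusted p = 0.123). Beside Snhg11, the transglutaminase gene Tgm2 was 1.49-fold higher in V/SVZ (3.01-fold by a second probe) and Slc32a1, the vesicular GABA transporter gene, 1.26-fold higher in CP (1.07-fold and not called after normexp correction). The tested genes next to Rian are Dlk1 and Ppp2r5c, given above.

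The genes with profiles most like each RNA were found by the root mean square difference of the 8 scaled log2 values, each centred on its own mean, probe by probe. For Snhg18 they were Aldoc, a glycolytic enzyme gene of radial glia (0.0792), and Nr2e1, a nuclear receptor gene of neural stem cells (0.129). For Meg3 they were Ccbe1 (0.104), by a probe (A_55_P2009882) not well above background on any V/SVZ array, and the synaptic scaffold gene Dlg2 (0.136). Another Ccbe1 probe, A_52_P39083, was also not well above background on any V/SVZ array. Its measured log2 difference was -8.42 (-5.16 after normexp correction), far from the -3.60 (-1.72) of the matched probe. For Neat1 they were the noncoding RNA Dleu2 (0.0727) and Eml5 (0.0740). For Malat1, Fam205a2 is given (0.114, with another of its probes at a log2 difference of 0.14), and for Snhg1 they were Dido1 (0.0217) and the ribosomal protein gene Rpl17 (0.0231), each by 1 of several probes. Another Dido1 probe was called towards V/SVZ (0.55, limma adjusted p = 1.04e-04), and 2 other Rpl17 probes were called towards CP (-0.25 and -0.12). The measure is a description over 8 arrays and is led by the tissue difference.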

How the data were processed

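Total RNA was amplified and labelled with Cy3 (Low Input Quick Amp), per the labels' protocols, and the deposited intensity values were made with Agilent Feature Extraction 10.7.1.1, per the file headers: a background-subtracted, detrended processed signal, and median spot and background signals. Log2 values of 17163 gene probes were deposited by the authors in a further table, whose filter and scaling between arrays are not given in the sources used here. That table entered 1 alternative, turned to the scanner files' direction. No column of per-sample values was unmapped (0 columns).

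The titles give the groups and replicate numbers. Replicate spots were averaged per probe as log2 processed signal, leaving out controls and spots marked as outliers (142 to 258 per array), and the 75th percentile of each array was subtracted. No gene spot was saturated. Tested probes (23860) were well above background on all 4 arrays of a tissue, with values on at least 3 arrays of each. V/SVZ minus CP was fitted with limma 3.58.1 under R 4.3.3 (lmFit, then eBayes). P-values were adjusted by Benjamini and Hochberg's method across all tested probes and called at 0.05. The spread of each estimate is limited by the number of arrays. The fit was tested on simulated data.

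Symbols came from a RefSeq table (GRCm38.p6), which named 26761 of 39429 probes through accessions. The array headers name build mm9, so probe positions are not given. For a listed or neighbouring gene, the tested probe of highest mean signal is given. Similar profiles were sought over tested probes of genes with a symbol that is not a provisional one, probe by probe. "At least" folds set the bright tissue's mean against, per dim array, the higher of the probe's value and the lowest signal well above background.

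The named RNAs and lists were chosen with earlier results of these data known. Named genes were, per list, the 3 genes of largest difference that were called and above background on all 8 arrays, and the most extreme called gene of the minority direction, plus marker genes, the tested protein-coding neighbours and the 2 most similar profiles. From a list of another cell type it was 1 gene. Some genes that this rule names are not reported here.

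Same-numbered arrays hold the same slide position, and their deviations correlated at 0.34, 0.31, 0.12 and 0.21 across probes. Arrays of unlike number correlated at -0.38 to 0.17, so number 3 did not stand out as a pair. The main fit was unpaired, and the number was fitted as a block only among the alternatives. The other alternatives were scaling, normexp (offset 50, on median signals since the files have no mean signal), filter, variance model, array weights, probe choice, the deposited table and each array left out.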

Additional observations from a re-analysis of the deposited data

Results flagged for a closer look

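In 134 groups of 4 arrays (every probe named, in each tissue), 12 held an array whose gap to the nearest other array was above Dixon's 95% critical value, as a share of the range of the group, while chance flags about 1 in 20 groups. None of these groups belongs to the 7 probes of Snhg18, Snhg1, Meg3, Malat1 or Neat1. All values are on the scaled log2 axis. V/SVZ array 3 stood apart for Pantr1 (6.21, others 6.30 to 6.31), Pax6os1 (-1.14, others -1.30 to -1.29) and Zc3h6 (-0.61, others -0.82 to -0.81). CP array 3 stood apart for Sox1ot (-2.81, others -3.81 to -3.73), Sox3 (-2.60, others -3.27 to -3.16) and Nbas (-0.98, others -0.76 to -0.74). V/SVZ array 4 stood apart for Qk (3.98, others 3.83 to 3.86), V/SVZ array 2 for Tbr1 (4.00, others 3.86 to 3.87) and V/SVZ array 1 for Cryba4 (-3.91, others -3.54 to -3.49). CP array 2 stood apart for Ss18l1 (1.62, others 1.69 to 1.70), CP array 4 for Smg1 (1.09, others at most 1.01) and CP array 1 for Rpl17 (5.66, others 5.61 to 5.62).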

How the results depend on the processing

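The counts of probes called, 8413 towards V/SVZ and 10595 towards CP, stayed within 1.5 times under each alternative, at 6677 to 8995 and 7580 to 15234, and with the replicate block they were 8482 and 10677. The replicate block changed the call of Atp11b and moved the V/SVZ count of the Dlk1-Dio3 list from 2 to 1, the CP count of paraspeckle proteins from 8 to 9 and that of speckle and splicing proteins from 11 to 12; the other list counts and the calls of the other genes that the naming rule gives did not change. The 3 and 3 of the 7 noncoding RNA probes called stayed 3 and 3 in each setting except the deposited table, where both counts were 0 because that table holds only the Snhg1 probe. Over the 8 lists together, 65 genes were called towards V/SVZ (63 to 71, and 64 with the block) and 49 towards CP (37 to 52, and 51 with the block). Of 120 alternative values of the 7 probes, 116 moved by less than the SD between replicates. The other 4 were normexp values of Snhg18 (6.39), Snhg1 (0.11) and the second Meg3 probe (-3.78), and the median-scaled Snhg1 (0.06). With each array left out in turn, Snhg18 stayed at 7.17 to 7.32, Malat1 at 0.61 to 0.93, Neat1 at 0.48 to 0.71 and the Meg3 probes at -4.59 to -3.61. With the mean of all probes of a gene, Nolc1 (-0.12) and Atp11b (-0.04) turned direction, and both have probes that disagree. In CP the signals of Snhg18 and Neat1 are within about 100 intensity units, so their folds rest on the background correction.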

Other observations

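The array order shared by Meg3, Malat1 and Neat1 in V/SVZ (array 3, then 2, then 1 and 4) was also seen in other noncoding RNAs. It was found in 79 of the 410 tested probes with a RefSeq noncoding accession and a value on all V/SVZ arrays (19.3%), beside 12% of all tested probes. The 79 include the 5 probes of Meg3, Malat1 and Neat1 on which the order was first seen. All 7 probes of the named RNAs are among the 410, so this share is not independent of them. In the list of other named noncoding RNAs the order was found in 7 of 21: Kcnq1ot1, Airn, Ftx, Dleu2, Mir22hg, Mir9-3hg and Mir100hg. It was found in 1 of 28 genes of paraspeckle proteins and in 3 of 33 genes of nuclear speckles and splicing (Son, Srrm2 and Clk1). In the list of small nucleolar RNA host genes, which also holds Rnu12, it was found in 1 of 12. It was seen in 2 of 10 endothelial and pericyte genes, in 1 of 8 interneuron genes and in 1 of 6 meningeal and choroid plexus genes. Also with this order were 1 of 10 projection neuron genes and 1 each of the snoRNA-protein complex (19) and nonsense-mediated decay (17) lists. None of the genes of the other lists had it. These genes were named after their values had been seen, and what sets the order was not tested.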
